A study of Mus musculus with 12 samples.

Results

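The heat shock proteins and other molecular chaperones of the mouse were followed in retinas and striata of wild-type (wt) mice and of the R6/1 line, a model of Huntington's disease. The members were the protein-coding genes of the deposited table whose symbols name an HSP70, HSP90, small heat shock or J protein, a TRiC subunit or a BAG protein, together with *Hspd1*, *Hspe1*, *Hsph1*, *Tcp1*, *Hsf1* and *Hsf2*. The rule found 85 members among 17579 genes, and it used no measured value. By role they were 11 HSP70 genes, 3 HSP110 genes, 6 BAG genes, 3 HSP90 genes, 41 J proteins (4 of class A, 11 of class B and 26 of class C), 7 small heat shock proteins, 8 TRiC genes, the 2 genes of the mitochondrial chaperonin and 2 heat shock factors. *Hspbp1* and *Hspbap1* entered through their symbols, and *Hspb11* was counted with the small heat shock proteins by its symbol alone. *Cct6a*, a TRiC subunit at 232 ± 7.05 CPM (counts scaled to a common library size, mean ± SD, n = 3) in the wt retina, was left out by the rule because the annotation used here types it as a processed transcript.

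Bulk mRNA libraries were made from 4 groups of 3 pools each, the retina and the striatum of each genotype. All mice were untreated males of 13 to 15 weeks on the C57Bl/6 background. R6/1 mice carry a transgene with the first exon of human huntingtin and an expanded CAG repeat under the human promoter, so that it is expressed widely and beside both intact mouse copies of the gene. Every library is a pool of RNA from several mice, and by the study's methods retina and striatum came from the same animals, so the spread between pools is smaller than the spread between mice and the retinal and striatal libraries are not independent samples. The comparisons ask how far chaperone transcripts differ with genotype in each tissue, whether the genotype effect differs between the tissues, and how wt retina and wt striatum differ.

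Chaperones bind unfolded or aggregation-prone proteins. HSP70 proteins hold and release their clients in a cycle driven by ATP, in which J proteins deliver clients and trigger hydrolysis, while BAG proteins and the HSP110 relatives of HSP70 exchange the nucleotide. HSP90 acts later, on clients such as kinases and steroid receptors. Small heat shock proteins hold unfolding proteins without ATP. TRiC is a double ring in the cytosol that folds actin and tubulin, and the HSP60 and HSP10 pair encoded by *Hspd1* and *Hspe1* does comparable work in mitochondria. Heat shock factor 1 drives the inducible members upon stress through heat shock elements, which are inverted repeats of GAA units. In Huntington's disease models chaperones are known for their action on aggregates of the polyglutamine protein, and in photoreceptors for the folding and transport of the phototransduction proteins.

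The start regions of the members are shown because such inverted repeats set the inducible chaperones apart as a family. Windows from 250 bases before to 50 bases after each annotated start were taken from RefSeq (GRCm38.p6), which held 69 of the 85 members by symbol. *Bag4*, *Cct4*, *Dnajc2*, *Dnajc5*, *Dnajc11*, *Dnajc12*, *Dnajc18*, *Dnajc22*, *Dnajc30*, *Hsf1*, *Hsp90aa1*, *Hsp90ab1*, *Hspa8*, *Hspa9*, *Hspa13* and *Hspb2* were not in it. The letters GAANNTTC, which read the same on both strands, lay in the window of 15 of 69 members (21.7%), against 9.04% of 27025 genes. TTCNNGAA, also its own reverse complement, was held by 7 members (10.1%), against 9.60% of genes. The alternating motif of 3 units on either strand, which is GAANNTTC followed after any 2 bases by GAA and so contains both shorter motifs, occurred in *Hspd1*, *Hspe1*, *Hsph1* and *Dnajb6*, that is in 5.80% of members and 0.662% of all genes. A match describes letters and is not evidence that a factor binds there. Representative windows are given 5′ to 3′ on the strand of the gene, with matches in capitals.
Hspe1, chr1:55088053-55088082, plus strand: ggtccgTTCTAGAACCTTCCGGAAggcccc
Dnajb6, chr5:29735841-29735870, plus strand: ctcagctccgaGAATCTTCCGGAAcgctag
Hsph1, chr5:149636287-149636306, minus strand: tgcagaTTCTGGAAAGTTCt
Hspa1a, chr17:34972242-34972271, minus strand: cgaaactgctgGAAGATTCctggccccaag
Hspa1b, chr17:34959324-34959353, minus strand: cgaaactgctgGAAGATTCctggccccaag
Hspb6, chr7:30553170-30553199, plus strand: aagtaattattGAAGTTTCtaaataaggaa
Cct2, chr10:117063399-117063428, minus strand: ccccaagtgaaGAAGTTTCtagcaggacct
The *Hspe1* window also lies inside the annotated *Hspd1* gene, near its start. Both genes begin on opposite strands of chromosome 1 with annotated starts 111 bases apart, and they overlap there. The windows of *Hspa1a* and *Hspa1b* are identical, and over the 250 bases upstream 247 are the same in both genes (98.8%), which lie 9952 bases apart on chromosome 17. These genes are known as near-identical copies, so that the counting could divide reads between them, and their sum is given beside the separate values. Their transcripts were not compared here. Among the members described below as changed in the R6/1 retina, GAANNTTC was found in 1 of the 7 lower ones in the table (*Hspb6*) and in 2 of the 3 higher ones (*Cct2* and *Hspd1*), against 12 of the 59 others.

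The 12 libraries held 14070445 to 22432431 counts. Of the members, 77 had a mean of at least 1 CPM, and 8 (*Hspa1l*, *Dnajb3*, *Dnajb13*, *Dnajc22*, *Cct6b*, *Hspb2*, *Hspb3* and *Hspb7*) were lower. *Dnajb13* had no count in any retina library, and *Dnajc22* and *Hspb2* had none in the striatum, where 3 counts, the limit that a count of 0 allows, correspond to 0.134 to 0.189 CPM per library (0.161 to 0.213 CPM in the retina, counting error only). The tissue labels matched the markers, with summed rod genes at 20021 CPM or more in every retina library and at most 7.92 CPM in the striatum. In all, 3 libraries stood apart. R6/1 retina replicate 2 held skeletal muscle transcripts (10 genes summing to 569 CPM, against 5.40 to 38.9 CPM in the other retinas) and R6/1 retina replicate 3 held lens transcripts (7 genes summing to 603 CPM, against 2.62 to 54.5 CPM). The library labelled wt striatum replicate 2 ranked its genes more like the R6/1 striata than like the other wt striata (mean Spearman correlation 0.994 against 0.992), while every other library was nearer its own group.

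All members together made up 1.18% ± 0.0587 of the counts of the wt retina (SD, n = 3), 1.23% ± 0.0118 in the R6/1 retina, 1.09% ± 0.0488 in the wt striatum and 1.20% ± 0.0301 in the R6/1 striatum. These are shares of unscaled library totals. In scaled CPM the members summed to 12251 ± 578 in the wt retina and 11540 ± 199 in the R6/1 retina. In the striatum they summed to 11496 ± 279 CPM in wt and 11753 ± 152 CPM in R6/1 pools. The order of the genotypes in the retina thus depended on the scaling. The median coefficient of variation between pools was 5.05% to 5.57% over the 77 members in the 4 groups. Only 3 to 6 members per group exceeded 20%, mostly low ones such as *Hspb1*, *Hspb8*, *Bag3* and *Hspa12b*. Levels per kilobase were taken over all annotated exons of a gene merged, which can be longer than the transcript expressed. They give only a rough order between genes. By that measure *Hsp90aa1* led the wt retina at 798 CPM per kb, followed by *Hspa8* at 269 CPM per kb and *Hsp90b1* at 178 CPM per kb, whereas in the wt striatum *Hsp90ab1* led at 437 CPM per kb, before *Hspa8* at 386 CPM per kb and *Hsp90aa1* at 350 CPM per kb.

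In the R6/1 retina chaperone genes were called in both directions. *Hspa8* and *Hsp90ab1*, the constitutive cytosolic HSP70 and HSP90 forms, were higher, while *Hsp90aa1*, the endoplasmic HSP90 gene *Hsp90b1*, the small heat shock gene *Hspb6* and the J protein gene *Dnajc28* were lower. By edgeR's quasi-likelihood test at an adjusted p under 0.05, 8 of 84 members tested were lower (9.52%, against 12.7% of all genes tested) and 6 were higher (7.14%, against 9.58% of all genes). In this fit both shares lie below those of all genes. For the higher members the order of the shares turned by DESeq2 (8.33% against 7.60%) and with library totals as the only scaling (25.0% against 23.4%). It also turned without R6/1 retina replicate 1 (8.33% against 7.62%), R6/1 retina replicate 2 (9.52% against 9.19%) or wt retina replicate 3 (7.14% against 6.71%). For the lower members it turned without wt retina replicate 1 (9.52% against 9.47%). The median log2 fold change of the members was 0.03, with 34 below and 50 above 0, beside a median of 0.01 over all genes. Pools of both genotypes did not overlap in 25 members (29.8%), against 38.4% of all genes.

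**Figure D1:**
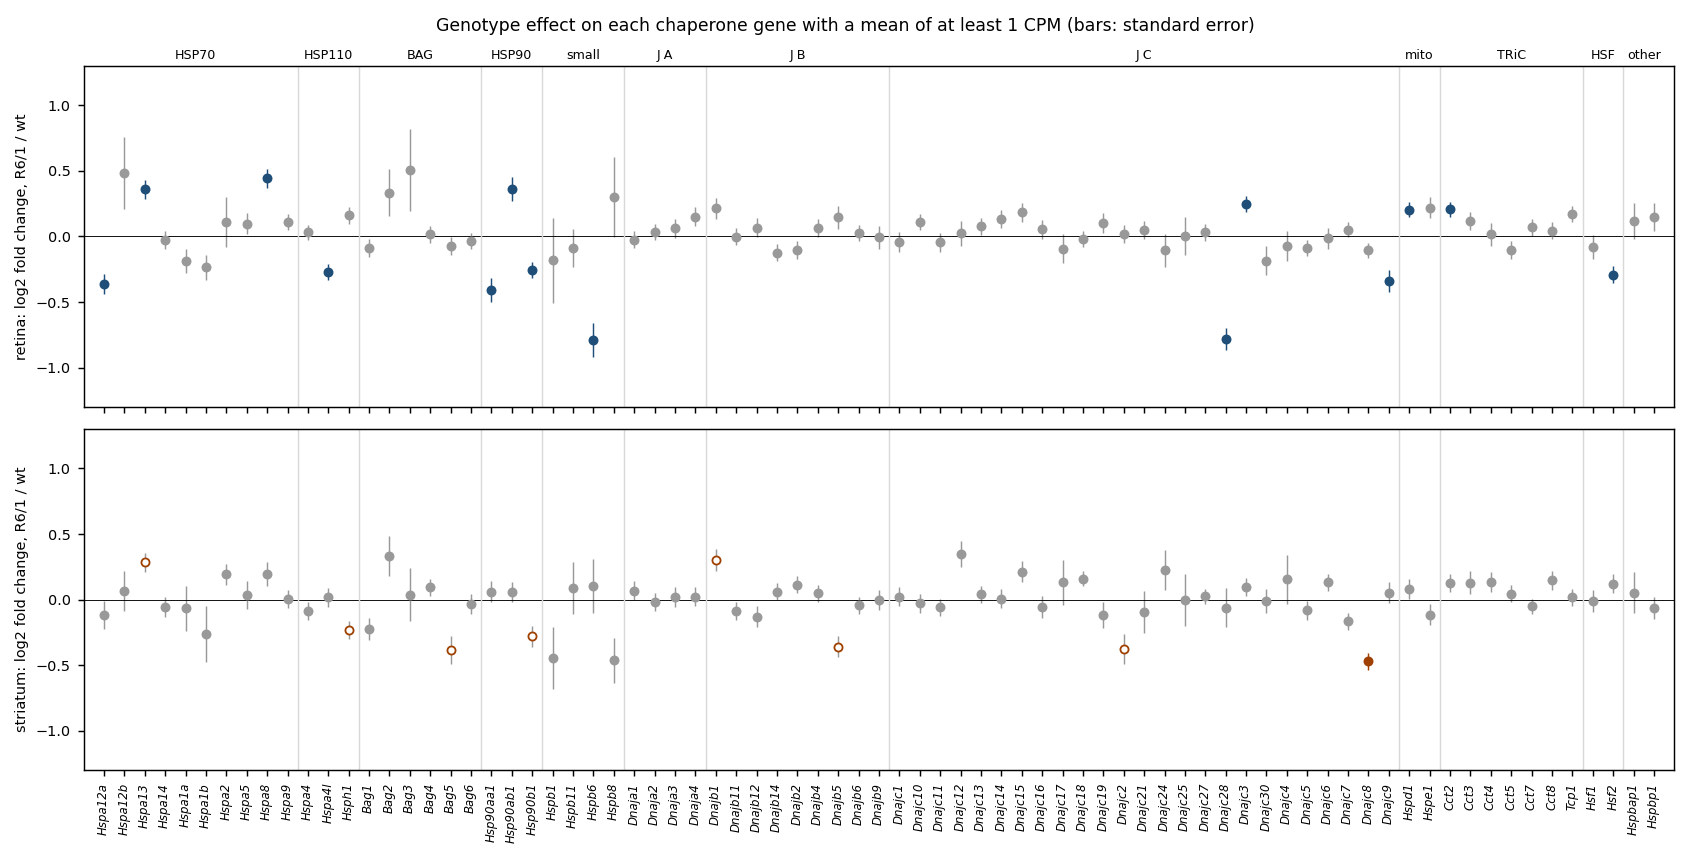
Log2 fold change of R6/1 against wt with its standard error (vertical axes) for the 77 members with a mean of at least 1 CPM, arranged by role, in the retina (upper panel) and striatum (lower panel). Filled coloured points passed an adjusted p of 0.05, open points passed in the striatum only with the replicate number as a block, and grey points did not pass. The 14 retinal calls lie on both sides of 0 and in most roles.

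Photoreceptor transcripts moved in the same comparison. All 10 rod genes were lower in the R6/1 retina (summed level 63636 to 71774 CPM in wt and 20021 to 28044 CPM in R6/1 pools), and so were all 6 cone genes (940 to 1078 CPM in wt and 99.4 to 113 CPM in R6/1). Of 8 microglial genes 4 were higher (summed level 33.5 to 35.3 CPM in wt and 52.0 to 60.8 CPM in R6/1). Of 8 Müller glia and astrocyte genes 3 were higher (*Gfap*, *Vim* and *Aldh1l1*) and *Glul* was lower. The summed level of these 8 genes was 3046 to 3536 CPM in wt and 2568 to 2865 CPM in R6/1 pools. In bulk RNA, fewer cells of a type and less RNA per cell cannot be told apart. The part of these marker shifts in the chaperone results was not tested.

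Among the HSP70 genes 2 rose, 1 fell and 8 did not pass the test in the retina. *Hspa8*, which encodes the constitutive Hsc70 that also uncoats clathrin vesicles, measured 1076, 1259 and 1139 CPM in the wt pools and 1555, 1514 and 1551 CPM in the R6/1 pools. Every R6/1 pool lay above every wt pool, with a log2 fold change of 0.44 ± 0.07 (SE) and an adjusted p of 0.000325. *Hspa13*, an HSP70 of the microsomal compartment, went from 60.2, 62.8 and 59.7 CPM to 83.0, 70.0 and 76.7 CPM (log2 fold change 0.36 ± 0.07, adjusted p = 0.00154). *Hspa12a*, a distant relative of HSP70 that is abundant in brain, fell from 267, 242 and 289 CPM to 187, 195 and 227 CPM (log2 fold change -0.36 ± 0.08, adjusted p = 0.00373). These 3 calls held when any 1 of the 6 retina libraries was left out. The HSP70 forms of the endoplasmic reticulum lumen and of mitochondria, *Hspa5* (BiP) and *Hspa9* (mortalin), did not pass, with log2 fold changes of 0.10 ± 0.08 and 0.11 ± 0.06.

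The stress-inducible pair *Hspa1a* and *Hspa1b* summed to 62.4 ± 5.73 CPM in the wt retina and 53.0 ± 5.02 CPM in the R6/1 retina (SD, n = 3). Their separate log2 fold changes were -0.19 ± 0.09 and -0.24 ± 0.09, and neither passed (adjusted p = 0.168 and 0.0841). *Hspa2*, a form best known from testis, stood at only 3.60 to 5.35 CPM in the 6 retina pools.

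The HSP110 genes, whose products act as exchange factors for HSP70, gave 1 call in the retina. *Hspa4l* was 651, 647 and 655 CPM in wt and 513, 542 and 529 CPM in R6/1 pools, a narrow and complete separation (log2 fold change -0.27 ± 0.06, adjusted p = 0.00368, and 0.0594 with library totals as the only scaling). *Hspa4* differed by 0.03 ± 0.06 and *Hsph1*, the inducible HSP105, by 0.16 ± 0.07 on the log2 scale, and neither passed. None of the 6 BAG genes passed, and their log2 fold changes ran from -0.09 to 0.51. The upper end was *Bag3*, the stress-inducible partner of *Hspb8* in selective autophagy, which measured 2.61, 4.39 and 2.92 CPM in wt and 3.11, 6.89 and 3.71 CPM in R6/1 pools. Its highest value came from R6/1 retina replicate 2, and without that pool its log2 fold change was 0.08 ± 0.24.

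All 3 HSP90 genes changed in the R6/1 retina, in opposite directions. *Hsp90aa1*, the inducible cytosolic form, fell from 2880, 3623 and 2908 CPM to 2448, 2232 and 2254 CPM (log2 fold change -0.41 ± 0.09, adjusted p = 0.00415). The call was lost in DESeq2 with the replicate number as a block (adjusted p = 0.0604). *Hsp90ab1*, the constitutive cytosolic form, measured 357, 350 and 427 CPM in wt and 417, 497 and 515 CPM in R6/1 pools (log2 fold change 0.36 ± 0.09, adjusted p = 0.0116). Here the highest wt pool exceeded the lowest R6/1 pool, and the call was lost without wt retina replicate 1 (adjusted p = 0.0656) or replicate 2 (0.0624). *Hsp90b1*, which encodes GRP94 of the endoplasmic reticulum, fell from 681, 740 and 731 CPM to 593, 591 and 582 CPM (log2 fold change -0.25 ± 0.06, adjusted p = 0.00817). With the library totals as the only scaling its adjusted p was 0.0964.

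The balance of the cytosolic HSP90 forms can be read within each pool. Per kilobase, *Hsp90aa1* exceeded *Hsp90ab1* by 6.42 ± 1.37 times in the wt retina (SD, n = 3, range 5.19 to 7.91) and by 3.75 ± 0.633 times in the R6/1 retina (range 3.34 to 4.48), with no overlap. Both genes had been called in opposite directions on these same pools, so the separation of the ratio adds no support. The ratio was 0.803 ± 0.0290 in the wt striatum and 0.807 ± 0.0902 in the R6/1 striatum. The merged exon lengths are the same for every pool, so they set the size of the ratio and not its order between groups. The sum of both genes was 3515 ± 400 CPM in the wt retina and 2788 ± 70.0 CPM in the R6/1 retina.

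**Figure D2:**
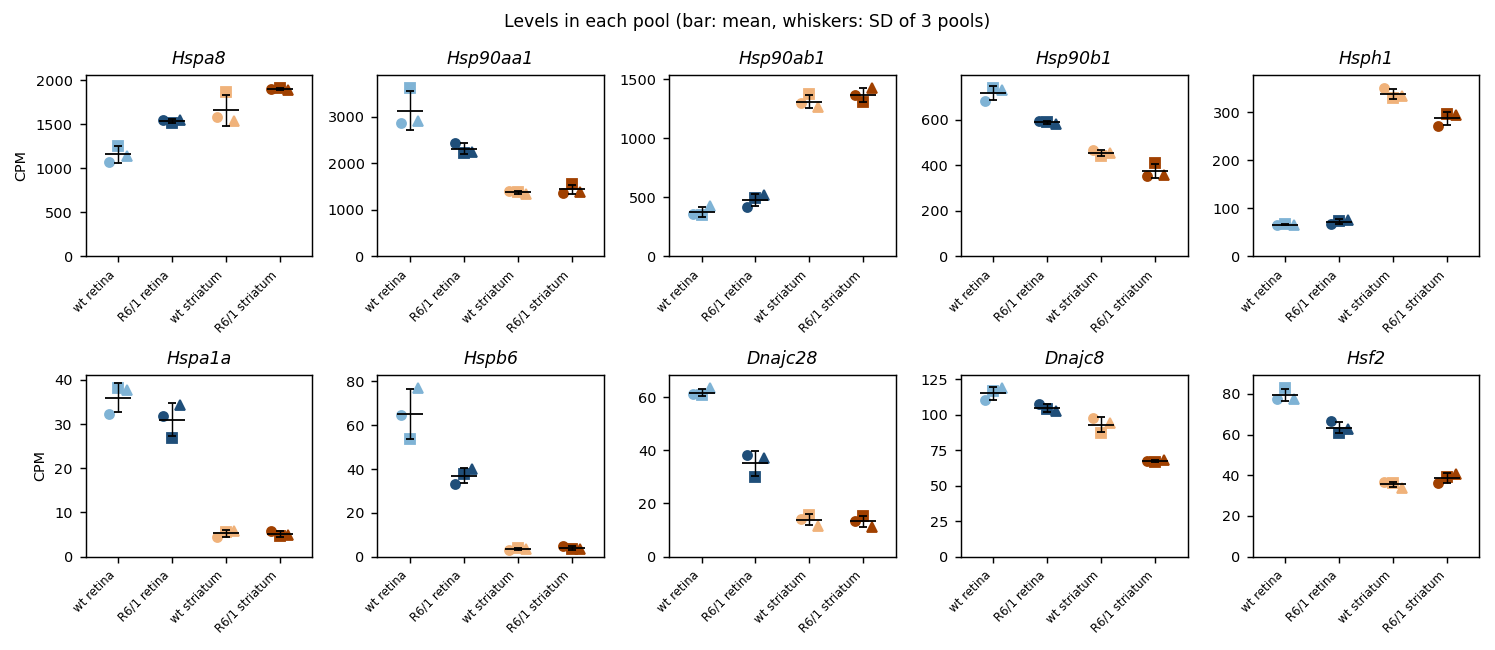
CPM of 10 members in each of the 12 libraries (vertical axes start at 0), with the mean and SD of the 3 pools of each group, where circles, squares and triangles are replicates 1, 2 and 3. Hsp90aa1 is highest in the wt retina and Hsp90ab1 in the striatum, and Hspa1a, Hspb6 and Dnajc28 are far lower in the striatum than in the retina.

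Of the 40 J proteins tested in the retina 37 did not pass, 2 were lower and 1 was higher. *Dnajc28*, a little studied J protein, had the lowest adjusted p of all members. It read 61.0, 60.7 and 63.3 CPM in wt and 38.4, 29.8 and 37.1 CPM in R6/1 pools (log2 fold change -0.78 ± 0.09, adjusted p = 4.53e-06), so the highest R6/1 pool stayed well below the lowest wt pool. *Dnajc9*, a chaperone of histones H3 and H4, fell from 39.2, 49.3 and 42.8 CPM to 34.2, 32.4 and 35.1 CPM (log2 fold change -0.34 ± 0.08, adjusted p = 0.00649). *Dnajc3*, the p58IPK co-chaperone of the endoplasmic reticulum that restrains the kinase PERK, rose from 73.0, 75.0 and 73.7 CPM to 86.8, 87.7 and 82.9 CPM (log2 fold change 0.25 ± 0.06, adjusted p = 0.00779). All 3 calls held in each of the 6 fits that left out 1 library, while DESeq2 with the replicate number as a block lost *Dnajc9* (adjusted p = 0.0828) and *Dnajc3* (0.0577).

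J proteins with known roles at the synapse or against polyglutamine did not pass in the retina. *Dnajc5*, the cysteine string protein of synaptic vesicles, differed by -0.09 ± 0.06 on the log2 scale, and *Dnajc6*, the neuronal auxilin that recruits Hsc70 to clathrin coats, by -0.01 ± 0.08. *Dnajb6* and *Dnajb2*, both suppressors of polyglutamine aggregation, gave log2 fold changes of 0.03 ± 0.06 and -0.10 ± 0.07. *Dnajb1*, the main inducible partner of HSP70, stood at 0.21 ± 0.08 with an adjusted p of 0.0670, and it passed without R6/1 retina replicate 2 or with library totals as the only scaling. *Dnaja1*, a farnesylated cytosolic form, differed by -0.02 ± 0.07.

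Of the 7 small heat shock genes 1 fell in the retina. *Hspb6*, or HSP20, dropped from 64.9, 53.7 and 76.9 CPM to 33.1, 37.8 and 40.0 CPM (log2 fold change -0.79 ± 0.13, adjusted p = 0.00259), and its pools did not overlap. Per kilobase *Hspb6* was the most abundant of these 7 genes in the wt retina, at 28.3 CPM per kb. It came before *Hspb11* (in this role by symbol alone) at 3.89, *Hspb8* (HSP22) at 2.06 and *Hspb1* (HSP27) at 1.68 CPM per kb. Across the 6 retina pools *Hspb1* ranged from 1.15 to 2.56 CPM and *Hspb8* from 3.38 to 7.56 CPM. The high end of *Hspb8* came from R6/1 retina replicate 2, and its log2 fold change of 0.30 ± 0.30 became -0.19 ± 0.20 without that pool. *Hspb7*, which is known from heart and skeletal muscle, was at 2.37 CPM in the same pool and at no more than 0.449 CPM in the other 11 libraries. That pool also held 60.0 CPM of the muscle creatine kinase gene *Ckm* and 27.7 CPM of the muscle filament gene *Des*, against at most 1.29 and 1.86 CPM elsewhere. The part of the muscle transcripts in these values was not tested.

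**Figure D3:**
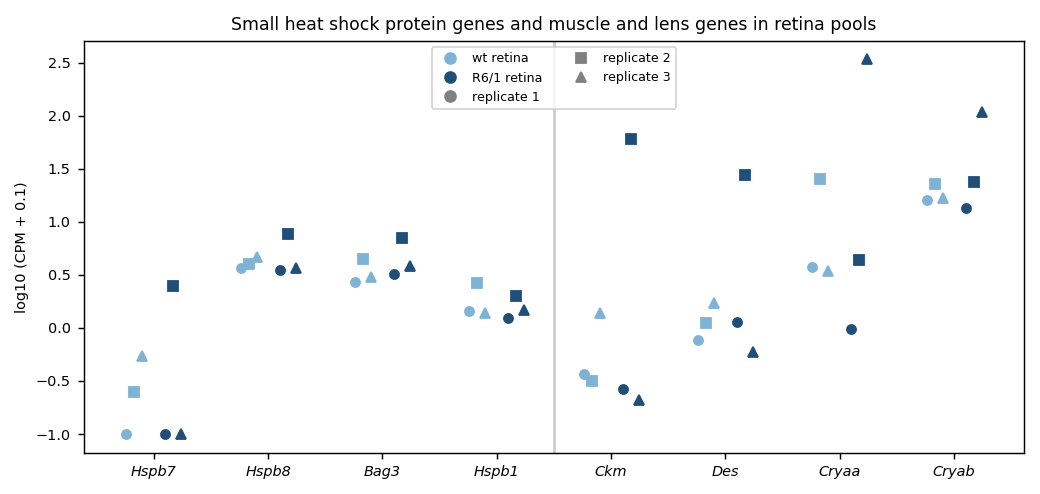
Level of 4 members and of 4 muscle or lens genes in the 6 retina pools on a log10 scale after adding 0.1 CPM, with circles, squares and triangles for replicates 1, 2 and 3. R6/1 retina replicate 2 is highest for Hspb7, Hspb8, Bag3, Ckm and Des, and R6/1 retina replicate 3 for the alpha crystallin genes Cryaa and Cryab.

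Alpha crystallins are small heat shock proteins by structure although their symbols fall outside the rule. *Cryab* measured 15.9, 22.7 and 16.6 CPM in the wt retina and 13.3, 23.5 and 109 CPM in the R6/1 retina, and *Cryaa* reached 339 CPM in R6/1 retina replicate 3 against 0.873 to 25.5 CPM in the other 5 retinas. Neither passed the test, and both rest on the pool with lens transcripts. The 14 calls of the members depended little on these libraries. All 14 held without R6/1 retina replicate 2, with *Dnajb1* and *Tcp1* added, and 13 held without replicate 3, the exception being *Cct2* (adjusted p = 0.0522).

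**Figure D4:**
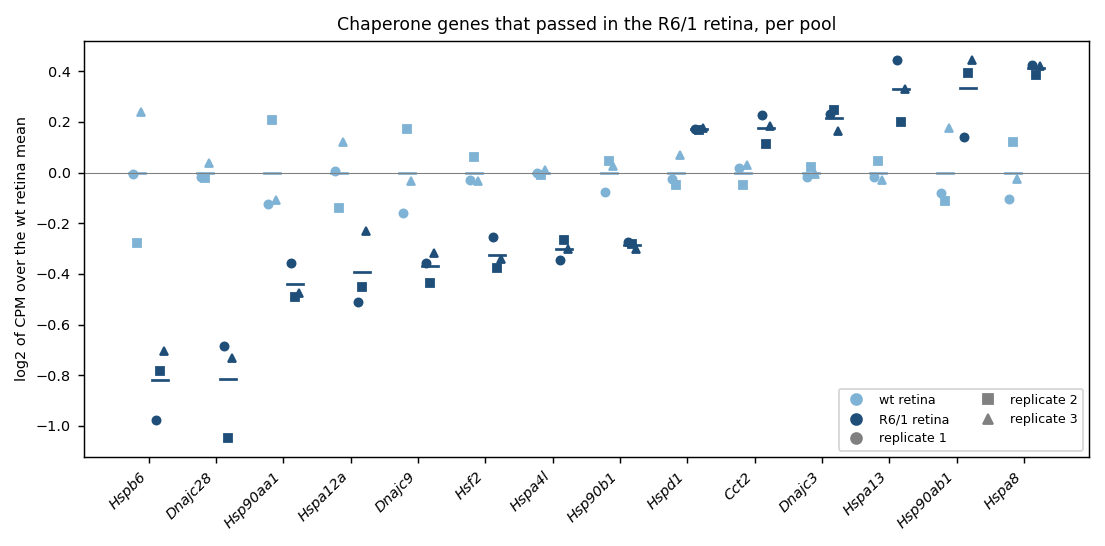
The 14 members that passed in the R6/1 retina, as log2 of the CPM of each pool over the mean of the 3 wt pools (vertical axis), with bars for group means. Dnajc28 and Hspb6 show the widest gaps, and only for Hsp90ab1 do the pools of both genotypes overlap.

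The chaperonins moved little. *Hspd1*, the HSP60 gene, rose from 157, 154 and 167 CPM to 180, 179 and 180 CPM (log2 fold change 0.20 ± 0.06, adjusted p = 0.0169). Its partner *Hspe1*, which shares the start region shown above, gave 24.8, 27.1 and 25.0 CPM in wt and 30.4, 28.9 and 28.3 CPM in R6/1 pools (log2 fold change 0.22 ± 0.08, adjusted p = 0.0597), a similar size that did not pass. Of the 8 TRiC genes only *Cct2* passed, with 137, 130 and 138 CPM against 158, 146 and 153 CPM (log2 fold change 0.21 ± 0.06, adjusted p = 0.0170). *Tcp1*, the alpha subunit, had an adjusted p of 0.0559 at a log2 fold change of 0.17 ± 0.06, and the TRiC genes together ranged from -0.10 to 0.21. The calls of *Cct2* and *Hspd1* were the least secure of the 14, since in the joint fit of all 12 libraries their adjusted p was 0.0715 and 0.0890, without wt retina replicate 1 it was 0.0552 and 0.0833, and without replicate 2 it was 0.0674 and 0.0685.

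Of the heat shock factors, *Hsf2* fell in the R6/1 retina and *Hsf1* did not pass. *Hsf2*, best known for roles in development, read 77.7, 82.7 and 77.5 CPM in wt and 66.5, 61.0 and 62.6 CPM in R6/1 pools (log2 fold change -0.29 ± 0.07, adjusted p = 0.00377). *Hsf1*, the main regulator of the heat shock response, measured 23.6, 25.3 and 22.8 CPM and 21.2, 23.7 and 21.4 CPM (log2 fold change -0.08 ± 0.09). Of 8 members of the endoplasmic reticulum 2 were higher (*Hspa13* and *Dnajc3*) and 1 was lower (*Hsp90b1*), whereas *Dnajb9* and *Dnajb11* of the same compartment differed by -0.01 ± 0.09 and -0.00 ± 0.07.

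Calls of partners outside the rule in the retina are read beside 12.7% of all genes lower and 9.58% higher. The lists were not tested against these shares. Of 20 co-chaperones of HSP90 and HSP70, *Unc45a*, a myosin chaperone that binds HSP90, fell by 0.49 ± 0.09 on the log2 scale (72.0, 76.7 and 63.6 CPM to 42.8, 51.4 and 53.8 CPM, adjusted p = 0.00106), *Sgtb* fell by 0.34 ± 0.06 (adjusted p = 0.000841), and none rose. *Stip1*, the HOP protein that links HSP70 to HSP90, differed by 0.04 ± 0.06. Of 13 prefoldin and tubulin folding genes, the tubulin cofactors *Tbca* and *Tbcb* rose by 0.26 ± 0.09 and 0.31 ± 0.08 (adjusted p = 0.0466 and 0.0151). Of 6 relatives and regulators of heat shock factors, *Eef1a1*, the translation elongation factor, rose by 0.32 ± 0.08 (adjusted p = 0.00781). No gene passed among 8 mitochondrial partners or 9 partners in the endoplasmic reticulum, which included *Trap1*, *Hyou1* and *Calr*.

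In the R6/1 striatum 1 of 83 members passed and was lower (1.20%, against 1.32% of all genes), and 0 were higher (against 0.132% of all genes). DESeq2 called 5 lower members (6.02%, against 4.84% of all genes) and 1 higher (1.2%, against 1.06%) at an adjusted p under 0.05. *Dnajc8*, a J protein linked to the spliceosome, fell from 97.8, 87.5 and 94.1 CPM to 67.4, 66.6 and 68.0 CPM, a complete separation (log2 fold change -0.47 ± 0.07, adjusted p = 0.0165). The call was lost in 4 of the 6 fits that left out 1 library, with an adjusted p of up to 0.104 without wt striatum replicate 1. The pools did not overlap in 22 members (26.5%), against 25.6% of all genes. Medium spiny neuron genes moved in the same comparison, with summed levels of 4446 to 6188 CPM in wt and 1383 to 2554 CPM in R6/1 pools, and *Penk* alone of the 10 passed, while 8 of the 10 were lower with the replicate number as a block. Their part in the chaperone values was not tested.

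Striatal pools with the same number deviated together (correlation 0.257 to 0.329). So did wt striatum replicate 1 and R6/1 striatum replicate 3 (0.240), so the number alone is not shown to pair the pools. With the number as a block 6 members were lower (7.23%, against 7.11% of all genes) and 2 were higher (2.41%, against 2.83%). Besides *Dnajc8* (adjusted p = 0.000715), the lower ones were *Bag5*, *Dnajb5*, *Dnajc2*, *Hsp90b1* and *Hsph1*. *Bag5*, a cochaperone that binds parkin, went from 61.3, 53.4 and 58.5 CPM to 47.4, 37.6 and 48.1 CPM (adjusted p = 0.00522 with the block and 0.103 without). *Dnajb5*, a cytosolic J protein abundant in brain, went from 90.6, 76.6 and 90.8 CPM to 65.2, 66.3 and 69.9 CPM (0.00718 and 0.0678). *Dnajc2*, which works on nascent chains at the ribosome, changed from 59.8, 47.5 and 46.8 CPM to 43.1, 36.1 and 39.9 CPM (0.00838 and 0.122).

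*Hsp90b1* measured 468, 441 and 453 CPM in the wt striatum and 355, 410 and 358 CPM in the R6/1 striatum (adjusted p = 0.0260 with the block and 0.106 without). *Hsph1* measured 351, 329 and 335 CPM and 273, 296 and 295 CPM (0.0385 and 0.114). The higher ones were *Hspa13*, with 76.3, 80.4 and 69.7 CPM against 96.1, 92.1 and 88.0 CPM (0.0153 and 0.0910), and *Dnajb1*, with 34.6, 37.4 and 31.7 CPM against 43.5, 40.5 and 44.4 CPM (0.0430 and 0.101). With the block in DESeq2, *Hspa13* (adjusted p = 0.0622), *Dnajb1* (0.203) and *Hsph1* (0.0618) did not pass. In all 8 of these genes the values of both genotypes were fully separated, as they were in 25.6% of all genes. The 8 genes were picked by a test on the same values, so this separation adds no support. Without both striatal libraries numbered 2 the counts were 6 lower members (against 10.2% of all genes) and 4 higher ones (against 6.21%). Without wt striatum replicate 2 alone they were 4 lower (against 7.25%) and 3 higher (against 4.32%).

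The genotype effect itself was compared between the tissues by an interaction term, over 82 members. The retinal effect lay below the striatal one for 6 of them (against 4.86% of all genes) and above it for 3 (against 3.38%). *Hsf2* had the lowest adjusted p. Its log2 fold change was -0.29 in the retina and 0.12 in the striatum, a difference of -0.45 ± 0.09 (adjusted p = 0.00962) that held in all 12 fits leaving out 1 library and was lost in DESeq2 with the replicate number as a block (0.0566). *Hsp90aa1* differed by -0.50 ± 0.13 (adjusted p = 0.0235), *Dnajc28* by -0.75 ± 0.18 (0.0199), *Hspb6* by -0.91 ± 0.24 (0.0317), *Hspa4l* by -0.32 ± 0.08 (0.0312) and *Dnajc9* by -0.42 ± 0.12 (0.0468). With the block the calls of *Dnajc28* (0.0542), *Hspb6* (0.0638), *Hspa4l* (0.0510) and *Dnajc9* (0.0635) were lost. For these 6 genes the striatal log2 fold change lay between -0.06 and 0.12. The 3 higher ones were *Hsph1* (0.36 ± 0.09, adjusted p = 0.0219), *Dnajb5* (0.47 ± 0.12, 0.0299) and *Dnajc8* (0.33 ± 0.08, 0.0234), whose striatal levels are given above. The block ended the call of *Dnajc8* (0.0565), and DESeq2 with the block those of *Dnajc8* (0.137), *Dnajc9* (0.181) and *Dnajb5* (0.0611). *Hspa8*, which passed in the retina and not in the striatum, gave a difference of 0.22 ± 0.11 that did not pass (adjusted p = 0.266), so its effect is not shown to differ between the tissues.

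Between the wt tissues the members differed widely. Of 84 tested, 32 were higher in the retina (38.1%, against 37.8% of all genes) and 29 were lower (34.5%, against 38.5%). Among members with a mean of at least 1 CPM, the largest excess in the retina was that of *Hspb6*, at 64.9, 53.7 and 76.9 CPM against 3.11, 4.02 and 3.50 CPM in the striatum (log2 difference 4.19 ± 0.16, adjusted p = 3.14e-09). *Hspa1a* and *Hspa1b* together measured 62.4 ± 5.73 CPM in the retina and 8.89 ± 1.19 CPM in the striatum (SD, n = 3), with separate log2 differences of 2.75 ± 0.12 and 2.89 ± 0.16. *Dnajc28* followed at 2.15 ± 0.10 and *Dnajc12*, a J protein that stabilises the aromatic amino acid hydroxylases, at 1.93 ± 0.11. *Hspa4l* (1.24 ± 0.07), *Hsp90aa1* (1.18 ± 0.10) and *Hsf2* (1.16 ± 0.07) completed the 8 largest from that mean upwards. *Dnajc22* and *Cct6b*, both under 1 CPM, were also higher in the retina.

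On the striatal side *Hspa2* stood at 26.0, 23.9 and 23.7 CPM against 3.88, 4.68 and 3.82 CPM in the retina (log2 difference -2.58 ± 0.12). *Hsph1* was 351, 329 and 335 CPM in the striatum and 65.9, 67.5 and 64.8 CPM in the retina (-2.36 ± 0.07, adjusted p = 5.33e-11). *Hsp90ab1* differed by -1.80 ± 0.09, *Hspa12b*, an endothelial relative of HSP70, by -1.72 ± 0.22 and *Dnajb5* by -1.59 ± 0.08. *Hspb8* (-1.15 ± 0.16), the HSP70 exchange factor *Hspbp1* (-1.06 ± 0.09) and *Bag3* (-1.01 ± 0.25) were also lower in the retina. Rod, cone, oligodendrocyte and microglial genes all differed between the tissues (for instance 33.5 to 35.3 CPM of summed microglial genes in the wt retina and 365 to 388 CPM in the wt striatum), and their part was not tested.

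**Figure D5:**
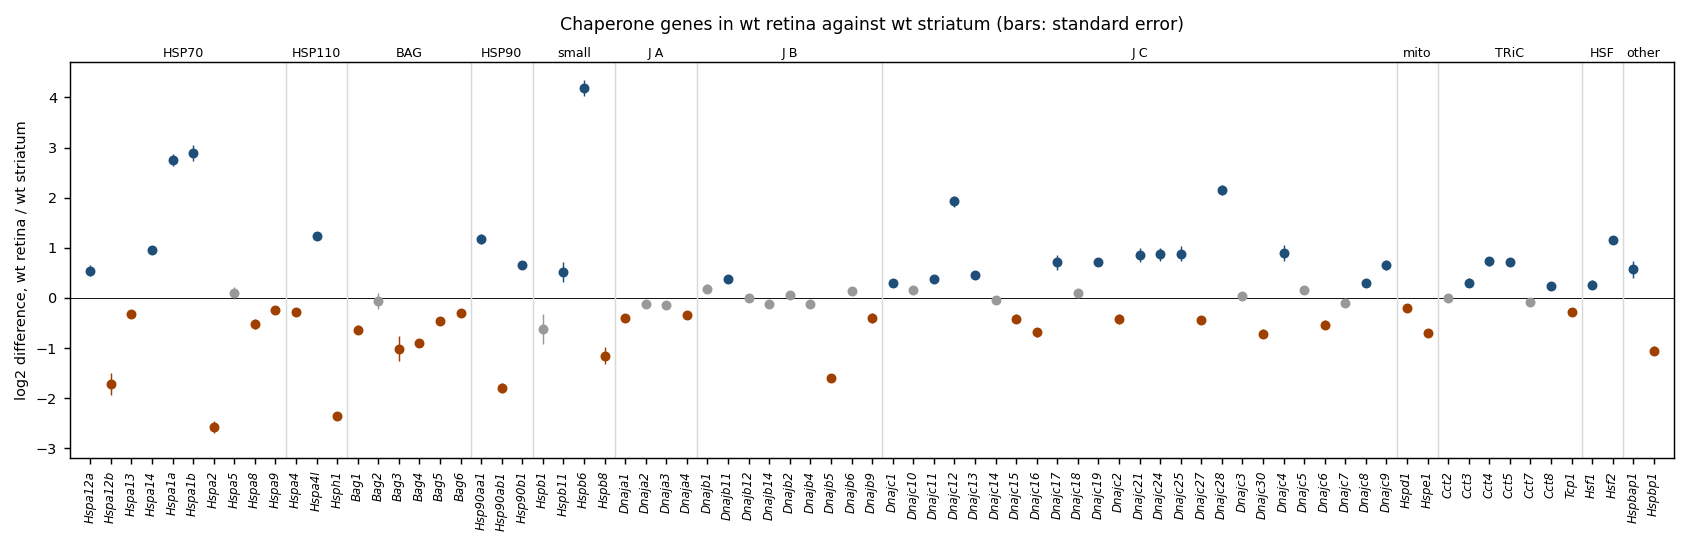
Log2 difference of wt retina against wt striatum with its standard error (vertical axis) for the 77 members with a mean of at least 1 CPM, arranged by role. Blue points were higher and brown points lower in the retina at an adjusted p of 0.05, and grey points did not pass. Hspb6, Hspa1b and Hspa1a lie highest and Hspa2 and Hsph1 lowest.

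By role, read beside 38.5% of all genes lower and 37.8% higher in the retina, the counts were as follows, and the roles were not tested against each other. Of the 6 BAG genes 5 were lower in the retina and only *Bag2* did not pass. The class C J proteins gave 14 higher and 6 lower genes, and the TRiC genes 5 higher (*Cct3*, *Cct4*, *Cct5*, *Cct6b* and *Cct8*) and 1 lower (*Tcp1*, log2 difference -0.27 ± 0.06). Genes of this complex thus lay on both sides of 0. Both mitochondrial chaperonin genes were lower in the retina, with *Hspd1* at -0.21 ± 0.07 and *Hspe1* at -0.69 ± 0.08. The call of *Hspd1* was lost without wt retina replicate 1 (adjusted p = 0.0836), wt retina replicate 2 (0.0803) or wt striatum replicate 1 (0.0529). It was also lost with library totals (0.0509) and in DESeq2 with the replicate number as a block (0.0607). *Hspa5*, *Dnajb6*, *Dnajb2*, *Dnajc3* and *Dnajc5* did not pass, and their log2 differences ran from 0.03 to 0.15. Leaving out 1 library at a time gave 28 to 29 lower and 30 to 33 higher members.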

How the data were processed

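The authors deposited expected counts per Ensembl gene for 12 libraries. By the study's methods and notes these came from polyadenylated RNA (stranded kit), with base calling by CASAVA, trimming by Trimmomatic and quantification by Salmon on GRCm38 (mm10), and genes with few counts in all samples were removed. The labels' extraction protocol mentions striatal tissue only. Salmon divides ambiguous reads between transcripts, so close copies such as *Hspa1a* and *Hspa1b* are uncertain, as are genes overlapping another on the same strand (*Hspa14*, *Hspb11*, *Dnaja3*, *Dnajb14*, *Dnajc13*, *Dnajc14* and *Dnajc25*). Libraries held 14070445 to 22432431 counts, which sets the counting precision, and p-values measure the spread between pools.

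Estimated counts were rounded, and genes with at least 10 counts over the libraries fitted were tested with edgeR 4.0.16 in R 4.3.3 (TMM factors, robust quasi-likelihood F test, Benjamini-Hochberg adjustment over all genes tested, adjusted p under 0.05) for R6/1 against wt within each tissue, for the difference of these effects (at least 10 counts in each tissue) and for wt retina against wt striatum. Groups came from the sample titles. SE is the log2 fold change over the root of F. CPM used TMM factors over all 12 libraries, so ratios of CPM can differ slightly from the fitted fold changes. Symbols and merged exon lengths came from GENCODE for 17530 of 17579 genes, and 49 had none. Pairing by replicate number was checked by correlating deviations from group means over 10445 genes. Same-numbered wt and R6/1 pools correlated at 0.257 to 0.329 in the striatum, where the numbers were taken to pair the pools although no source states this, and at -0.0943 to 0.124 in the retina, where they were not. Of the differently numbered striatal pools, wt replicate 1 and R6/1 replicate 3 correlated at 0.240, and the others at -0.389 to -0.0421. Between the tissues, same-numbered pools correlated at 0.119 to 0.242 in R6/1 mice and at -0.0261 to 0.0195 in wt mice. For the difference between tissues, the block paired same-numbered retina and striatum pools within each genotype, and the main fit did not. The edgeR fits were tested on simulated counts with known changes. These were larger than the genotype effects of the members called here, so the simulation does not bear on effects of that size. Alternatives were DESeq2 1.42.0, other scalings and count filters, the replicate block, a joint fit and leaving out libraries. The block with DESeq2, the fits without both striatal libraries numbered 2 and the muscle gene list were added after seeing the data. The rule named the textbook members of each role, all members called in a genotype comparison and the 8 largest tissue differences each way from a mean of 1 CPM. The members, lists and tests were chosen with earlier results of these data known.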

Additional observations from a re-analysis of the deposited data

Results flagged for a closer look

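In all, 9 members were listed because the interaction term between tissue and genotype passed an adjusted p of 0.05 in edgeR's quasi-likelihood test, that is, because the log2 genotype effect in the retina minus that in the striatum differed from 0. The difference was -0.91 for *Hspb6*, -0.75 for *Dnajc28*, -0.50 for *Hsp90aa1*, -0.45 for *Hsf2*, -0.42 for *Dnajc9* and -0.32 for *Hspa4l*, and it was 0.47 for *Dnajb5*, 0.36 for *Hsph1* and 0.33 for *Dnajc8*. Leaving out 1 library at a time (12 fits) ended the call of *Hsf2* in 0 fits, of *Dnajc28* in 1, of *Hsp90aa1* in 2, of *Dnajc8* in 3, of *Hsph1* in 6, of *Hspb6* in 7, of *Hspa4l* and *Dnajb5* in 8 each and of *Dnajc9* in 10, and the sign never changed.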

How the results depend on the processing

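No member that passed a test changed direction under any alternative. In the retina 8 members stayed lower in every fit that left out 1 library (against 9.47% to 12.7% of all genes). In these fits the count of higher members ranged from 3 to 8 (against 5.84% to 9.19%), and it was 3 without wt retina replicate 1 (against 5.84%). Higher members numbered 3 at an adjusted p under 0.01 and 21 (against 23.4% of all genes) when library totals replaced TMM. That scaling moved the median over all genes on the log2 scale from 0.01 to 0.13 and left 6 lower members (against 8.71%). In the striatum, where 1 member was lower and 0 were higher, lower members numbered 5 by DESeq2 (against 4.84% of all genes) and 6 with the block (against 7.11%). They numbered 6 without both libraries numbered 2 (against 10.2%) and 0 to 4 without 1 library (against 0.00602% to 7.25%). DESeq2 with the block gave 5, the joint fit of all 12 libraries gave 6 and an adjusted p under 0.01 gave 0. Higher members there numbered 1 by DESeq2 (against 1.06%), 2 with the block (against 2.83%) and 2 with library totals (against 1.32%). They numbered 4 without both libraries numbered 2 (against 6.21%) and 0 to 3 without 1 library, with 3 without wt striatum replicate 2 (against 4.32%). DESeq2 with the block gave 0 and the joint fit gave 2. For the difference between tissues, 6 effects were lower and 3 higher in the retina. The block gave 2 lower (against 4.04% of all genes) and 2 higher (against 3.09%). Leaving out 1 library gave 2 to 6 lower (against 2.84% to 7.01%) and 0 to 4 higher (against 2.06% to 5.76%). The 0 higher came without wt retina replicate 1 or wt striatum replicate 1. DESeq2 with the block gave 1 higher, and the stricter threshold gave 1 lower and 0 higher. Shares of all genes were not computed for the joint fit, DESeq2 with the block or the stricter threshold. The share of members with a heat shock motif was 5.80% for the motif of 3 units. The block changed no other call count by over 1.5 times, and the cause of these shifts was not tested. With 3 pools a group, retinal changes near 0.20 on the log2 scale lay at the edge of what passed for abundant members such as *Cct2* and *Hspd1*. Larger changes of members with low levels did not pass in the edgeR test. Examples are *Bag3* at 0.51 (adjusted p = 0.301) and *Hspa12b* at 0.49 (0.229), so a member that did not pass can still have changed by more.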
